A study of Mus musculus with 21 samples.

Results

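Day 2 after folic acid was compared with day 0 in whole mouse kidney, by small RNA sequencing of mature miRNAs. The comparison took 6 of the 21 libraries of the series, 3 labelled day 0 and 3 labelled day 2, and every miRNA that passed a filter on low reads, 431 of the 1125 in the table. Both groups were kidneys of male BALB/c mice, an inbred strain, aged 12 weeks, with no genetic change named in the labels. Mice received folic acid at 250 mg/kg in sodium bicarbonate, and kidneys were taken on the day of injection (day 0) or 2 days later (day 2). Whether the day 0 mice had been injected is not stated in the labels. No group given sodium bicarbonate alone was analysed here, so folic acid, vehicle and handling cannot be told apart. The labels do not tie the 3 libraries of a day to separate animals, so a p-value measures the spread between libraries of a day, which may be technical. Unless stated otherwise, that spread was pooled over all 21 libraries, and so over the other days of the series too.

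A high dose of folic acid damages the cells of the renal tubule, which die or lose their differentiated state and then divide to repair the nephron. A miRNA is a short RNA, cut from one arm (5p or 3p) of a hairpin precursor, that lowers the output of mRNAs with a match to its seed, bases 2 to 8. miRNAs with the same seed can share targets even when their genes lie on different chromosomes and are transcribed separately. In kidney, miR-192 and the miR-30 family are known from tubule epithelium, and miR-21 is the miRNA best known to rise after renal injury.

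The sequences below carry the results that follow, printed 5′ to 3′ with the seed in capitals, from RefSeq (GRCm38.p6). The first set holds both arms of the miR-21 hairpin (chr11:86584067-86584158, in the gene Vmp1) and the miR-132 and miR-212 pair (chr11:75173682-75173747 and chr11:75173388-75173478), which were the steepest rises. Both members of that pair have the seed AACAGUC.
miR-21-5p: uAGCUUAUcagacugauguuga
miR-21-3p: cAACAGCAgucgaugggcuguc
miR-132-3p: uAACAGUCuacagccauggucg
miR-212-3p: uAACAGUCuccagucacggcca

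The second set shares the seed AAAGUGC, and of its 6 members 2 were called higher, 2 lower and 2 were not called. miR-17-5p and miR-20a-5p come from the Mir17hg transcript on chromosome 14, miR-106a-5p and miR-20b-5p from a cluster on chromosome X, and miR-106b-5p and miR-93-5p from a cluster within Mcm7 on chromosome 5.
miR-17-5p: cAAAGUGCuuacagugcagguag
miR-20a-5p: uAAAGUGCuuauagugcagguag
miR-106a-5p: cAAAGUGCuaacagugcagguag
miR-20b-5p: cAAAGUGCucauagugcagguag
miR-106b-5p: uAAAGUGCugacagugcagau
miR-93-5p: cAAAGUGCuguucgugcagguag

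The third set, with the seed AUUGCAC, comes from the same 3 clusters (miR-92a, miR-363 and miR-25) and from single genes (miR-32 in Tmem245 and miR-92b), with 3 members called higher and 2 lower.
miR-92a-3p: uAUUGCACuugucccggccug
miR-25-3p: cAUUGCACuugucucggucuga
miR-92b-3p: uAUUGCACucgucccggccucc
miR-363-3p: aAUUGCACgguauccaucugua
miR-32-5p: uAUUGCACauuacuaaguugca

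The fourth set holds 3 members of the miR-30 family, which fell together, the miR-146 pair, whose members share a seed and moved apart, and, from the let-7 seed group, let-7i, which rose, beside let-7f, which was not called.
miR-30a-5p: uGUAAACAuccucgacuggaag
miR-30c-5p: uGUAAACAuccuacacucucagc
miR-30e-5p: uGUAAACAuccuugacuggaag
miR-146a-5p: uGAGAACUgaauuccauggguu
miR-146b-5p: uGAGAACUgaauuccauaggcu
let-7i-5p: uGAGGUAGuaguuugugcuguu
let-7f-5p: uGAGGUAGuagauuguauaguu

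Depth in the 6 libraries ran from 3571696 to 7110546 miRNA reads, and 593 to 683 miRNAs had a read in a library. Levels are given as CPM, the reads of a miRNA scaled to a common library total, after TMM scaling, which corrects for differences in composition, in the order of replicates 1, 2 and 3. Differences are on the log2(CPM + 1) scale, with a standard error (SE), from 1 limma fit over all 21 libraries, and calls were made at a Benjamini-Hochberg adjusted p under 0.05 over the 431 miRNAs. The tubule miRNA miR-192-5p was among the 4 most abundant miRNAs at day 0, with miR-10a-5p, miR-10b-5p and miR-22-3p. Of the markers of other organs, some were at or near 0 and others were not. miR-216a-5p and miR-217-5p of pancreas had no read in the 6 libraries, miR-124-3p of brain and miR-206-3p of skeletal muscle at most 1, and miR-122-5p of liver at most 8. miR-9-5p and miR-128-3p, known from brain but not restricted to it, had means of 244 ± 43.3 and 103 ± 15.3 CPM at day 0, miR-375-3p 189 ± 11.0 CPM, and miR-133a-3p of striated muscle 29.4 ± 7.88 CPM.

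Of the 431 miRNAs, 187 were called (43.4%), 105 higher at day 2 (24.4%) and 82 lower (19.0%). Counts of called members in the lists below are to be read against these shares. With library totals in place of TMM the median difference of all miRNAs moved from 0.02 to 0.20, and 143 were higher and 47 lower, so that 75.3% of calls in place of 56.1% were rises. The groups did not overlap for 247 miRNAs (57.3%), 135 with day 2 higher (31.3%) and 112 with day 2 lower (26.0%). Among 58 miRNAs with a mean of 1000 CPM or more, 10 were higher and 24 lower, and the median difference was -0.13. Among 141 with a mean under 10 CPM, 31 were higher and 7 lower, and the median was 0.21. These values are after TMM scaling. They were not taken with library totals, which raise the median of all miRNAs as given above.

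**Figure D1:**
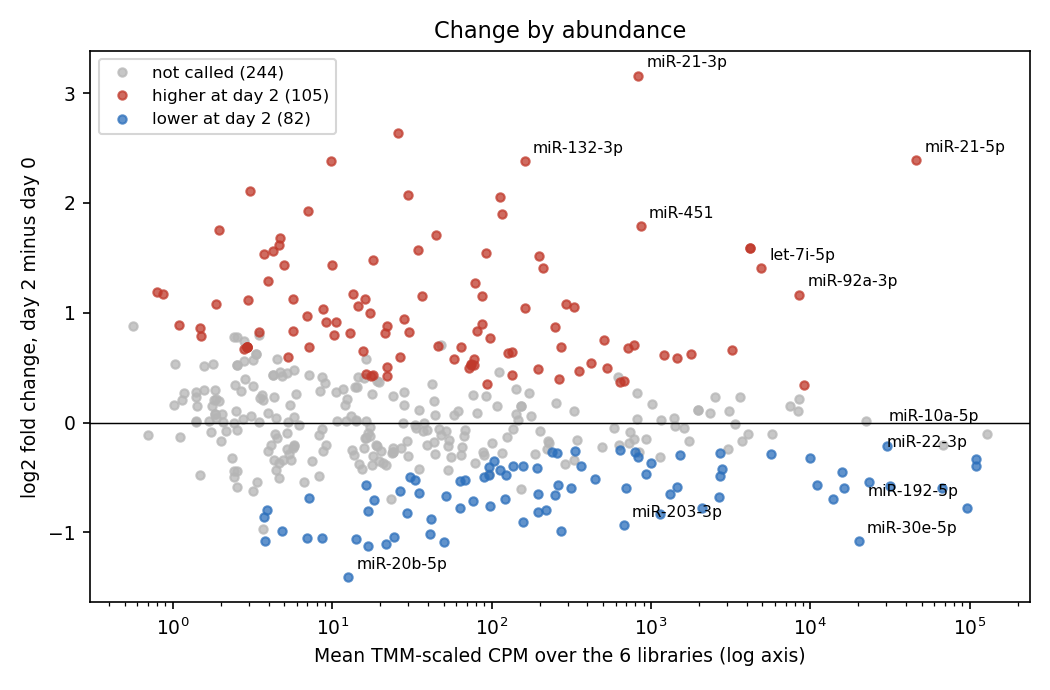
Difference between day 2 and day 0 (log2 of CPM + 1) against mean level over the 6 libraries (TMM-scaled CPM, log axis), 1 point per miRNA, with 105 called higher in red, 82 called lower in blue and the others grey. Among miRNAs of 1000 CPM or more, blue points (24) outnumber red ones (10), and miR-21-5p is the red point furthest to the right.

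The 105 miRNAs called higher held 4.62% ± 0.520 of the reads at day 0 and 15.5% ± 0.713 at day 2 (SD, n = 3). miR-21-5p alone went from 1.40% ± 0.151 to 8.37% ± 0.559, and the other rising miRNAs together from 3.23% to 7.12%. The 82 called lower held 65.8% ± 0.315 at day 0 and 52.5% ± 0.522 at day 2. The share of miR-192-5p was 11.4% ± 0.887 and then 7.63% ± 0.284, and that of miR-30a-5p was 7.60% ± 0.370 and then 5.74% ± 0.113. These shares add to 100% in each library, so that one large rise lowers the shares of the others. In order of level miR-21-5p was absent from the 10 most abundant miRNAs at day 0 and stood behind miR-10a-5p, miR-22-3p and miR-10b-5p alone at day 2. Among the abundant miRNAs that fell were miR-22-3p, from 121714, 119222 and 124012 CPM to 95021, 99141 and 95241 CPM (-0.33, adjusted p = 0.00734, and 0.247 with library totals), and miR-26a-5p, from 34571, 37937 and 42022 CPM to 26206, 26095 and 24162 CPM (-0.58, adjusted p = 2.41e-05). The 10 miRNAs that led at day 0 held 73.8% of the reads there and 63.7% at day 2, when the 10 that led at day 2 held 71.0%.

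**Figure D2:**
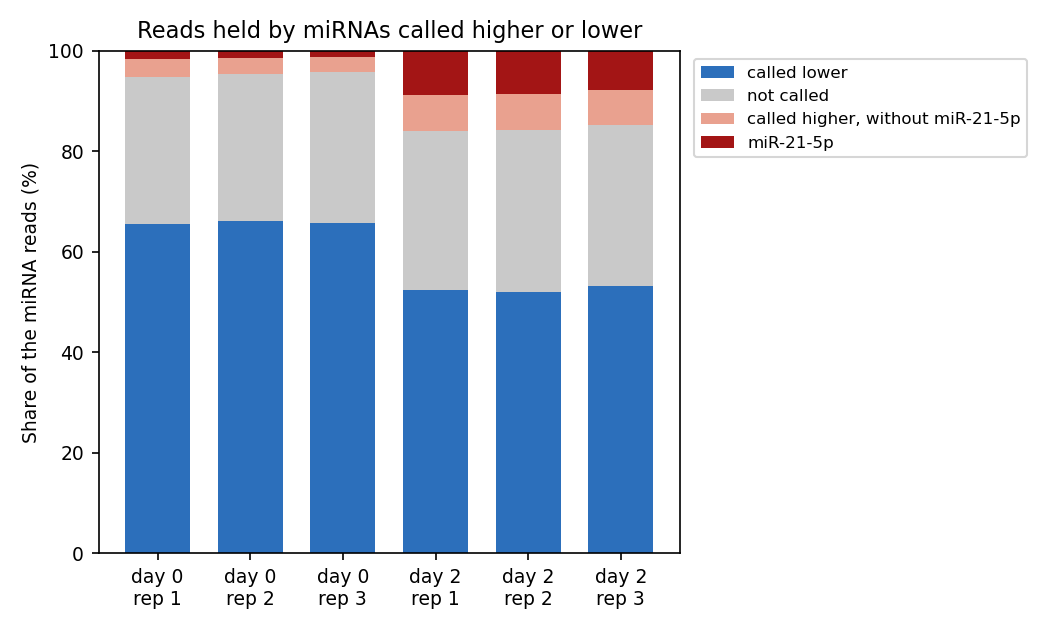
Share of the miRNA reads (%, bars from 0 to 100) in each of the 6 libraries, split into miRNAs called lower, not called, called higher, and miR-21-5p. The miR-21-5p share is between 7.72% and 8.72% in the day 2 libraries and between 1.24% and 1.55% in the day 0 libraries.

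The question first asked of injured kidney is how far the miRNAs known from renal injury had moved. miR-21-5p stood at 15616, 15742 and 12862 CPM at day 0 and at 81921, 82235 and 67649 CPM at day 2. All day 2 libraries were above all day 0 libraries, and the difference was 2.39 (SE 0.15, adjusted p = 1.83e-10). Its 3p partner, miR-21-3p, had 188, 196 and 124 CPM at day 0 and 1660, 1474 and 1348 CPM at day 2, a difference of 3.16 (SE 0.20), the largest among called miRNAs with a mean of 10 CPM or more and no overlap.

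The miR-132 and miR-212 hairpins are close neighbours, known in neurons and macrophages as a CREB-driven pair. All 4 of their mature miRNAs were called higher. miR-132-3p had 56.5, 51.3 and 46.0 CPM at day 0 and 288, 269 and 256 CPM at day 2 (2.38, SE 0.20). miR-212-3p had 8.07, 6.88 and 4.63 CPM at day 0 and 49.7, 40.5 and 45.1 CPM at day 2 (2.64, SE 0.24). The day 2 libraries of both lay within a narrow band far above day 0. The 5p arms rose by 1.44 (miR-132-5p) and 1.68 (miR-212-5p).

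miR-31-5p, an epithelial miRNA known from wound repair in skin and gut, had 43.5, 61.4 and 41.7 CPM at day 0 and 162, 190 and 197 CPM at day 2 (1.90, SE 0.19). All 11 miRNAs of the injury list were called higher, with a median difference of 1.90 against 0.02 over all 431 miRNAs. That list was drawn from what is known of injured kidney, perhaps from these samples, and so its direction is no separate evidence. The 2 smallest rises in it were those of miR-199a-5p (0.49, adjusted p = 0.0115) and of miR-34a-5p (0.58, adjusted p = 0.0341). The call of miR-34a-5p was lost without day 0 replicate 1 or 2, or without day 2 replicate 1 or 3 (adjusted p up to 0.153), and that of miR-199a-5p without day 0 replicate 1 (adjusted p = 0.052).

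**Figure D3:**
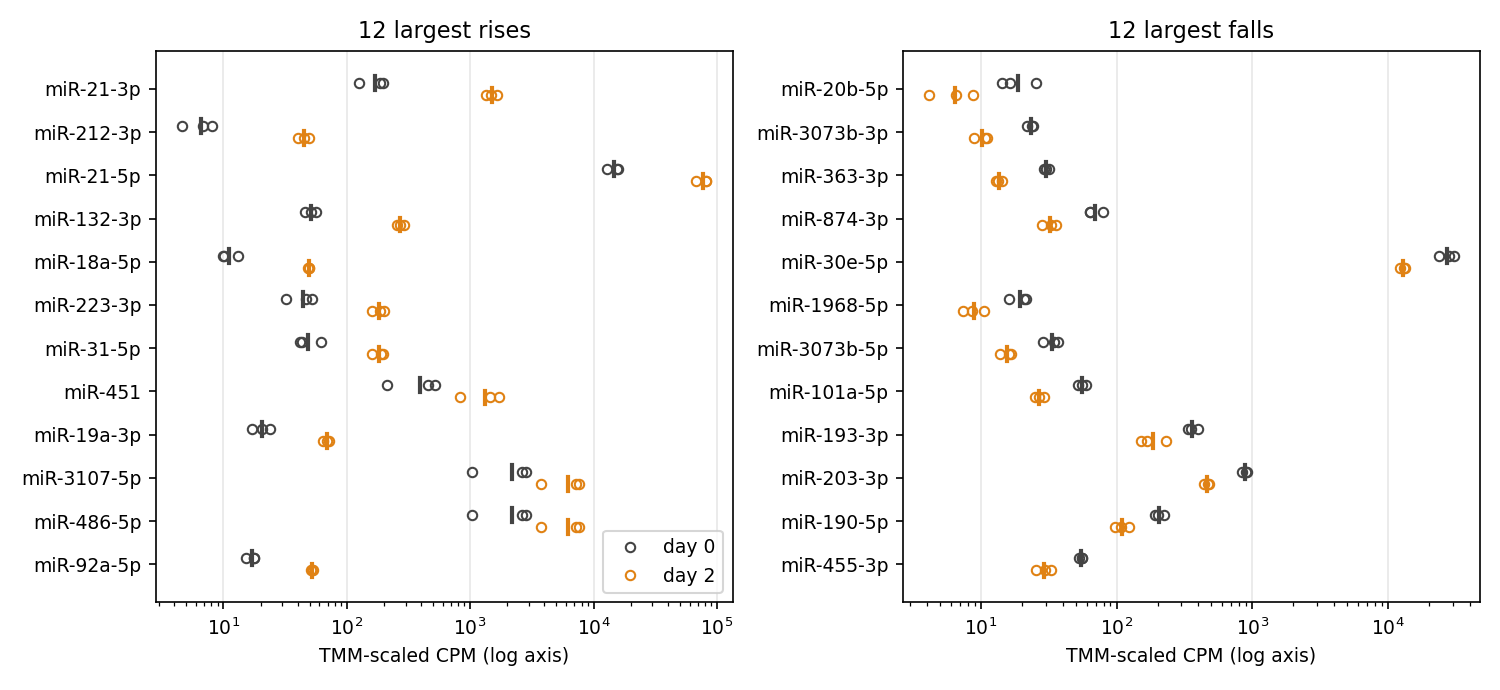
Level in each library (TMM-scaled CPM, log axis) of the 12 largest rises (left) and the 12 largest falls (right) among called miRNAs with a mean of 10 CPM or more and no overlap, grey circles for day 0, orange circles for day 2, vertical bars for the means of 3. The rises reach 3.16 on the log2 scale (miR-21-3p) and the falls -1.41 (miR-20b-5p), and the day 0 spread is widest for miR-451, miR-486-5p and miR-3107-5p.

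miRNAs known as targets of NF-kB and interferon signalling, which act as brakes on or drivers of inflammation, moved in both directions. Of 10 tested, 7 were called higher and 1 lower (over all 431, 24.4% and 19.0%). Among the 7, miR-21-5p, miR-132-3p, miR-212-3p, miR-155-5p and miR-146b-5p are also on the injury list above. Their rises are therefore counted in both lists, and the count is no separate evidence. miR-155-5p, a driver of macrophage and lymphocyte activation, had 60.4, 54.9 and 57.6 CPM at day 0 and 104, 110 and 96.1 CPM at day 2 (0.83, SE 0.12). The miR-146 pair, which is known to restrain Traf6 and Irak1, split in spite of the shared seed GAGAACU printed above. miR-146b-5p rose from 92.2, 87.2 and 128 CPM to 291, 324 and 262 CPM (1.52, SE 0.20). miR-146a-5p was lower, with 215, 200 and 340 CPM at day 0 and 129, 167 and 124 CPM at day 2 (-0.82, SE 0.21, adjusted p = 0.00389). In every day 0 library miR-146a-5p had the more reads of the pair, and in every day 2 library miR-146b-5p had.

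miR-147-3p, known from activated mouse macrophages, had 0.260, 1.15 and 0.289 CPM at day 0, which is at the level of a few reads, and 5.99, 5.61 and 5.08 CPM at day 2. The neighbours miR-221-3p and miR-222-3p on chromosome X, known from proliferating cells, parted: miR-221-3p rose from a mean of 962 ± 103 to 1467 ± 67.2 CPM (0.61), while miR-222-3p was at 1142 ± 106 and 1161 ± 100 CPM (0.02, adjusted p = 0.904). Their difference from each other was not tested.

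Leukocyte miRNAs were measured as markers of cells that enter an injured kidney. In whole tissue a change in the number of cells of a type and a change in RNA per cell cannot be told apart, and this holds for every level given here. miR-223-3p, the defining miRNA of neutrophils and monocytes, had 32.3, 46.5 and 52.7 CPM at day 0 and 185, 201 and 161 CPM at day 2 (2.06, SE 0.21). Of 4 tested myeloid miRNAs the 2 arms of miR-223 were called higher, and miR-511-5p and miR-511-3p were not called, with means of 0.749 and 1.59 CPM at day 0 and 0.655 and 1.92 CPM at day 2. The summed level of the myeloid list was between 35.7 and 56.7 CPM at day 0 and between 174 and 209 CPM at day 2.

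Of 5 miRNAs of leukocytes in general and of lymphocytes, 4 were called higher and 1 lower, and their sum ran from 844 to 1124 CPM at day 0 and from 1331 to 1379 CPM at day 2. miR-142-3p, known from all blood-forming lineages, had 54.7, 52.8 and 53.5 CPM at day 0 and 130, 108 and 125 CPM at day 2. miR-150-5p, the miRNA of mature lymphocytes, was lower, with 248, 297 and 374 CPM and then 157, 176 and 250 CPM, groups that overlap. Its call (-0.66, adjusted p = 0.00975) was lost with library totals, without day 0 replicate 3 and without day 2 replicate 1. Both arms of miR-223 and 4 of these 5 miRNAs were thus higher at day 2, as were most of the inflammatory miRNAs above. Leukocytes also express several of the latter, and the part of leukocytes in those rises was not tested.

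Erythroid miRNAs also moved with day. miR-451, the most abundant miRNA of red cells, had 514, 452 and 212 CPM at day 0 and 1712, 1442 and 835 CPM at day 2 (1.79, SE 0.45). In both groups replicate 3 was the lowest library. Of 4 erythroid miRNAs 3 were called higher, but without day 0 replicate 3 only 1 was. The call of miR-144-3p (1.27, adjusted p = 0.0415) was lost in 7 of 17 alternatives, among them DESeq2 (adjusted p = 0.056) and robust empirical Bayes, and without day 0 replicate 1 or 3 or day 2 replicate 1 or 2 (adjusted p up to 0.17), while that of miR-451 was lost in none. Their sum ran from 1293 to 3380 CPM at day 0 and from 4729 to 9598 CPM at day 2. The rows of miR-486-5p and miR-3107-5p held nearly the same values and cannot be separated; both gave 1.59 (adjusted p = 0.0115), and both were lost without day 0 replicate 3 (adjusted p = 0.0844). The part of blood left in the tissue in these values was not tested.

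Clusters of the miR-17 group act downstream of Myc and E2f factors in the cell cycle. Of 14 listed miRNAs of the Mir17hg and Mcm7 clusters, 10 were called higher and none lower. In the Mir17hg cluster on chromosome 14, 7 of 9 miRNAs were called higher, with a median difference of 1.05. miR-18a-5p had 13.0, 10.1 and 9.84 CPM at day 0 and 49.5, 48.8 and 49.4 CPM at day 2 (2.08, SE 0.20). miR-19a-3p had 16.9, 20.7 and 23.7 CPM at day 0 and 72.1, 64.5 and 69.3 CPM at day 2 (1.71, SE 0.21). The 3 day 2 libraries of each lay close together, and none came near a day 0 library.

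Within that cluster the differences ran from 0.34 to 2.08, and its members were not tested against each other. miR-19b-3p and miR-92a-3p also have a gene on chromosome X, as given below. miR-17-5p and miR-20a-5p, which differ outside the seed, rose by 1.04 and 0.65, and miR-92a-3p, the most abundant of the cluster, went from 5431, 5685 and 4744 CPM to 11890, 11501 and 12061 CPM (1.16, SE 0.10). miR-17-3p (0.40, adjusted p = 0.0518) and miR-20a-3p (0.34, adjusted p = 0.344) were not called. With edgeR, library totals or the compared days alone miR-17-3p was called higher (adjusted p of 0.0416, 0.00309 and 0.0385). In the Mcm7 cluster on chromosome 5, 4 of 6 were called higher, miR-25-5p by 1.29, miR-93-3p by 0.92, miR-106b-3p by 0.69 and miR-25-3p by 0.62. Its most abundant 5p arm, miR-93-5p, had 949, 1036 and 873 CPM at day 0 and 1108, 1058 and 1048 CPM at day 2 (0.17, adjusted p = 0.134). It was called higher with library totals and without day 0 replicate 2. miR-106b-5p (0.46, adjusted p = 0.0518) was not called either. It was called higher with library totals, the compared days alone or robust empirical Bayes, and without day 2 replicate 3.

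The chromosome X paralogue went the other way. miR-20b-5p had 14.3, 16.4 and 25.5 CPM at day 0 and 8.69, 6.55 and 4.16 CPM at day 2 (-1.41, SE 0.29, adjusted p = 0.000525), the largest fall among called miRNAs of 10 CPM or more whose groups did not overlap. miR-363-3p had 30.0, 29.1 and 31.8 CPM at day 0 and 14.3, 13.4 and 12.9 CPM at day 2 (-1.11, SE 0.23). miR-106a-5p had 8.86, 8.99 and 9.26 CPM at day 0 and 4.56, 5.48 and 5.78 CPM at day 2 (-0.68), a call that was lost with library totals (adjusted p = 0.0546) and without day 2 replicate 1. All 3 tested miRNAs that RefSeq places only in this cluster were thus called lower. miR-19b-3p and miR-92a-3p, which have a second gene there, are made from chromosome 14 as well, and their reads cannot be assigned to either gene. miR-20b-5p and miR-20a-5p differ by few bases, as the sequences above show, and how the authors' counting shared reads between such paralogues is not given in the sources used here.

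**Figure D4:**
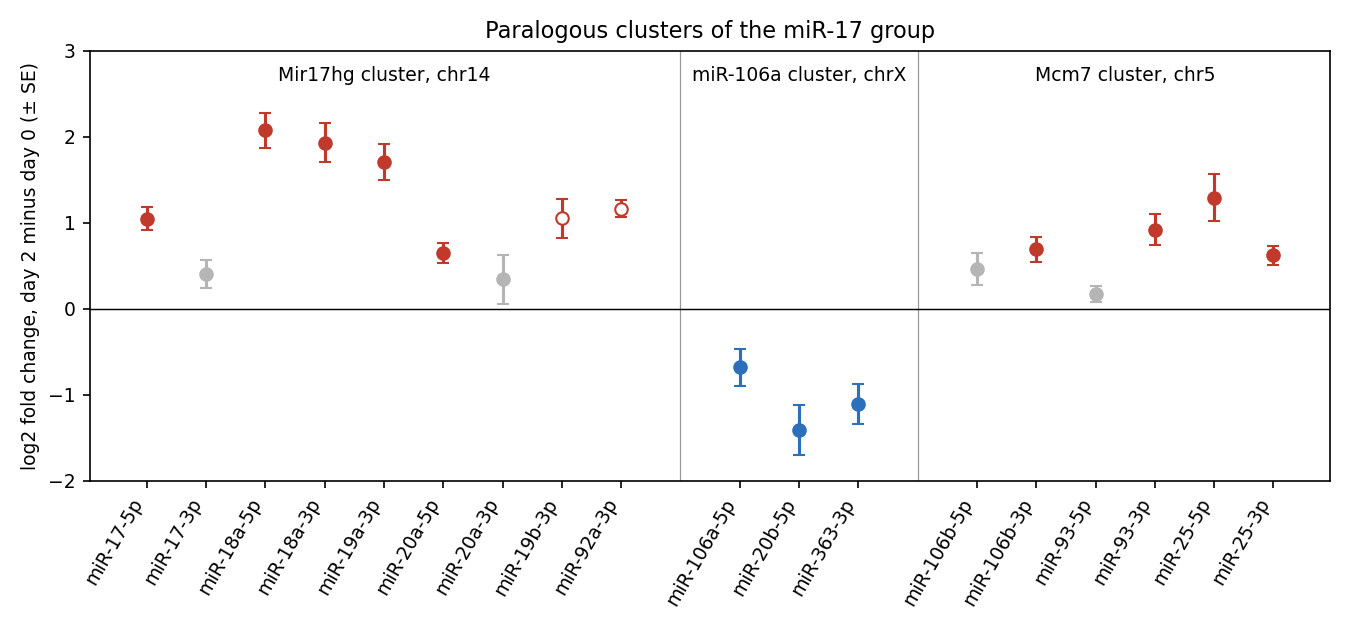
Difference between day 2 and day 0 (log2 of CPM + 1, bars SE) for mature miRNAs of 3 paralogous clusters, red for called higher, blue for called lower and grey for not called. Open circles mark miR-19b-3p and miR-92a-3p, which have a gene in both the chromosome 14 and the chromosome X cluster. The 3 chromosome X miRNAs lie between -0.68 and -1.41, and none of the chromosome 14 or chromosome 5 miRNAs lies below 0.

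Levels were also summed over each seed. The 6 miRNAs of seed AAAGUGC together had 1257, 1370 and 1228 CPM at day 0 and 1656, 1598 and 1535 CPM at day 2, and the members that fell held few of these reads. The 5 miRNAs of seed AUUGCAC together had 7235, 7525 and 6300 CPM at day 0 and 14512, 14107 and 14538 CPM at day 2, and miR-92a-3p held most of it. In that group miR-92b-3p rose by 0.69, and miR-32-5p, hosted by Tmem245, fell by 0.53. These sums are descriptions, with no test.

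The miR-34 family, transcribed under p53, was tested as a record of DNA damage signalling. Of 5 mature miRNAs, 4 were called higher (over all 431, 24.4%), with a median difference of 0.58. Without day 0 replicate 1, without day 2 replicate 1 or with no filter, 2 were called. miR-34c-5p, the most abundant, went from 230 ± 39.3 to 300 ± 11.3 CPM (0.39, adjusted p = 0.0299). Its call was lost in 5 of 17 alternatives, among them leaving out day 0 replicate 1 or any 1 of the day 2 libraries (adjusted p up to 0.18). miR-34b-5p had 12.2, 19.1 and 14.8 CPM at day 0 and 26.4, 26.2 and 30.0 CPM at day 2 (0.82, SE 0.18). miR-34c-3p, at 2.60, 2.68 and 4.34 CPM and then 6.41, 10.4 and 7.62 CPM, gave 1.12 (SE 0.24). The hypoxia miRNA miR-210-3p had 44.8, 60.6 and 45.7 CPM at day 0 and 44.2, 41.4 and 52.9 CPM at day 2, groups that overlap (-0.12, SE 0.16, adjusted p = 0.587). miR-210-5p was not called either (-0.54, adjusted p = 0.141), except without day 0 replicate 3, where it was lower (adjusted p = 0.0301).

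Of 11 tested tubule miRNAs, 5 were called lower and none higher (over all 431, 19.0% and 24.4%). With library totals 3 were called lower and miR-204-5p higher (0.30). miR-192-5p, which is known from proximal tubule and is induced by Hnf1 and p53, had 124500, 129013 and 109143 CPM at day 0 and 73845, 69474 and 67560 CPM at day 2 (-0.78, SE 0.12, adjusted p = 2.6e-05). miR-215-5p, which has the same seed UGACCUA, fell by 0.80, from 25.8, 20.3 and 18.8 CPM to 12.8, 13.4 and 9.70 CPM. miR-194-2-5p, named after its values were seen since the list holds it under another name, had 3420, 3449 and 3056 CPM at day 0 and 2201, 2016 and 1996 CPM at day 2 (-0.67). All day 2 libraries of these 3 were below all day 0 libraries. The 3p arms on the list, miR-192-3p (-0.36, adjusted p = 0.183) and miR-194-2-3p (-0.21, adjusted p = 0.39), had groups that overlap and were not called.

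miR-190-5p, hosted by Tln2, fell from a mean of 206 ± 16.3 to 109 ± 13.2 CPM (-0.91, SE 0.18). miR-204-5p, a miRNA of differentiated tubule and retinal epithelium, was at 316 ± 17.1 and 341 ± 9.80 CPM (0.11, adjusted p = 0.388). The Hox-cluster miRNAs were mixed. miR-10a-5p, the most abundant miRNA at both days, had 108567, 150135 and 141132 CPM and then 131579, 132243 and 107436 CPM, groups that overlap (-0.10, adjusted p = 0.633). miR-10b-5p was called lower (-0.39, adjusted p = 0.0334), a call that library totals ended (adjusted p = 0.108), as did leaving out day 0 replicate 2 (adjusted p = 0.197) or day 2 replicate 1 or 3.

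Of 9 tested miR-30 miRNAs, 8 were called lower (over all 431, 19.0%) and none higher, with a median difference of -0.45. With library totals 5 were called lower. miR-30e-5p had 23578, 28146 and 30413 CPM at day 0 and 13354, 13069 and 12173 CPM at day 2 (-1.08, SE 0.16, adjusted p = 1.89e-05), the largest fall in the family. Its 3p arm fell by 0.83. miR-30a-5p had 72740, 89377 and 79082 CPM at day 0 and 55094, 54352 and 49445 CPM at day 2 (-0.60, SE 0.11), and miR-30c-5p fell by 0.70. The 3 members whose sequences are printed above, with the seed GUAAACA, together went from between 111682 and 134397 CPM to between 71820 and 79793 CPM. No sequence was found for miR-30b-5p and miR-30d-5p, so they are not in this sum. Their means were 3208 and 18372 CPM at day 0 and 2384 and 13398 CPM at day 2. miR-30b-3p was at 14.1 ± 1.65 and 14.3 ± 0.724 CPM and was not called (0.02). The calls of miR-30a-3p, miR-30b-5p and miR-30d-3p were those lost with library totals (adjusted p of 0.578, 0.0945 and 0.209).

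All 4 tested miR-101 miRNAs, which target Ezh2, were called lower. miR-101a-3p had 13112, 14011 and 12272 CPM at day 0 and 9061, 8692 and 8816 CPM at day 2 (-0.57, SE 0.09), and miR-101a-5p, its scarcer arm, fell by 1.02. miR-101b-3p (-0.26, adjusted p = 0.0235) was lost in 5 alternatives, among them library totals (adjusted p = 0.658). miR-101c (-0.76, from 123 ± 4.57 to 72.1 ± 1.65 CPM) has a sequence that lies wholly within that of miR-101a-3p. How reads were shared between them is not given in the sources used here, so their falls may not be separate.

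Of 5 tested miRNAs of lipid and mitochondrial metabolism, 3 were called lower. miR-378-3p, known from mitochondrial metabolism, fell from 27796 ± 2627 to 19043 ± 155 CPM (-0.54). miR-33-5p, hosted by the sterol regulator gene Srebf2, had 25.5, 23.1 and 20.3 CPM at day 0 and 15.0, 10.3 and 16.4 CPM at day 2 (-0.71, SE 0.17). miR-378-5p (-0.41, adjusted p = 0.00971) lost its call with library totals or without day 0 replicate 2 (adjusted p of 0.274 and 0.0631). Of the 8 tested miR-200 miRNAs, keepers of the epithelial state through Zeb1 and Zeb2, 1 was called, miR-200a-3p (-0.59, from 1751 ± 212 to 1158 ± 50.9 CPM). Of the 5 tested miR-29 miRNAs, which target collagen mRNAs, miR-29c-3p alone was called (-0.60, from 837 ± 139 to 549 ± 42.6 CPM), and miR-29a-3p as well without day 0 replicate 1 or day 2 replicate 1 (adjusted p of 0.0305 and 0.0488). With library totals 2 of the miR-200 miRNAs, miR-429-3p and miR-141-5p, were called higher, the latter also without day 0 replicate 2, and without day 0 replicate 1 miR-141-3p was called lower (adjusted p = 0.0377).

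Among the largest falls outside these lists, miR-203-3p, known for limiting division in skin, had 917, 902 and 838 CPM at day 0 and 475, 469 and 441 CPM at day 2 (-0.94, SE 0.13). miR-193-3p had 335, 354 and 397 CPM and then 168, 152 and 232 CPM (-0.99, SE 0.19). miR-874-3p fell by 1.08, from 64.1, 63.7 and 79.6 CPM to 35.6, 32.6 and 28.0 CPM. In all 3 the groups lay well apart. The other 4 outside the lists were both arms of miR-3073b (-1.12 for 3p and -1.04 for 5p), miR-1968-5p (-1.06) and miR-455-3p (-0.88).

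The let-7 family, which lowers Lin28 and Hmga2, is abundant in kidney. Of 9 tested members 3 were called higher and none lower, with a median difference of 0.15. Over all 431 miRNAs 24.4% were called higher and 19.0% lower. With library totals or without day 0 replicate 1, 5 members were called higher, with let-7a-5p and miR-98-5p added. let-7i-5p had the largest difference of the 9, with 2976, 2624 and 2479 CPM at day 0 and 6657, 6886 and 7833 CPM at day 2 (1.40, SE 0.14, adjusted p = 1.23e-07). let-7f-5p, the most abundant member, had 25262, 20090 and 21284 CPM at day 0 and 21227, 22451 and 23556 CPM at day 2, groups that overlap (0.02, adjusted p = 0.884). let-7e-5p rose by 0.68, and let-7c-5p by 0.35 (adjusted p = 0.035), a call lost with 8 alternatives, among them leaving out each library other than day 0 replicate 1. The 9 together ran from 47329 to 57955 CPM at day 0 and from 56997 to 61857 CPM at day 2.

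In the seed group AGCAGCA of miR-15 and miR-16, miR-15b-5p, which lies with Smc4, a gene of mitotic chromosomes, rose from 63.0, 56.6 and 63.4 CPM to 116, 120 and 107 CPM (0.89, SE 0.13), while miR-15a-5p (-0.25) and miR-497-5p (-0.40) were called lower. Both falls were lost with library totals (adjusted p of 0.747 and 0.247) and without day 2 replicate 2, and miR-15a-5p also without day 0 replicate 3 or day 2 replicate 3. In the group AGUGCAA, miR-130b-3p rose by 1.48 (from 9.10 ± 2.22 to 26.9 ± 2.86 CPM), and miR-130a-3p (-0.15) and miR-301a-3p (-0.05) were not called. In the group ACAUUCA, miR-181a-5p, miR-181b-5p and miR-181c-5p were lower (-0.59, -0.37 and -0.47) and miR-181d-5p higher (0.43, adjusted p = 0.0253). The calls of miR-181b-5p and miR-181c-5p were lost with library totals, that of miR-181b-5p also without day 0 replicate 2 or day 2 replicate 1 or 2, and that of miR-181d-5p without day 0 replicate 1 or 3 and without day 2 replicate 2 or 3.

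Clustered genes outside the miR-17 paralogues gave further runs of rises. In the miR-183 cluster on chromosome 6, known from sensory epithelia, miR-183-5p had 103, 142 and 101 CPM at day 0 and 316, 341 and 259 CPM at day 2 (1.40, SE 0.21). miR-96-5p (1.13) and miR-182-5p (0.66) were called higher too, the latter lost without day 0 replicate 1 or day 2 replicate 2. In the Dnm3os transcript on chromosome 1, which mesenchymal cells express, miR-214-3p had 46.9, 43.4 and 50.1 CPM at day 0 and 147, 121 and 147 CPM at day 2 (1.54, SE 0.21), while miR-199a-3p, which cannot be told apart from miR-199b-3p in the table, was at 1909 ± 239 and 2064 ± 111 CPM (0.12). The 6 tested miRNAs of the imprinted region on chromosome 12 had differences between 0.00 and 0.46, and none was called; with library totals or without day 2 replicate 1, miR-127-3p and miR-434-5p were.

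Markers of the other cells of the kidney gave these values. Of 6 mesenchymal miRNAs, 5 of them distinct since miR-199a-3p and miR-199b-3p hold the same values, 3 were called higher (over all 431, 24.4%). With that pair counted once, their sum ran from 1996 to 2401 CPM at day 0 and from 2332 to 2574 CPM at day 2. Of 4 smooth muscle miRNAs none was called, and their sum was 62423 to 80610 CPM and then 57381 to 69647 CPM. None of these 4 had an unadjusted p under 0.05 in limma, and edgeR and DESeq2 called none. With library totals or the compared days alone miR-145-5p was called higher, and without day 0 replicate 3 miR-143-3p was called lower. Both arms of miR-126, the defining miRNA of endothelium, were called lower, miR-126-3p from 3035, 3136 and 3343 CPM to 2154, 2262 and 2378 CPM (-0.49, SE 0.10). miR-126-5p (-0.33, adjusted p = 0.0217) was lost with library totals, without day 0 replicate 2 and without day 2 replicate 3. The part of these cell types in the results above was not tested.

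miR-375-3p, known from pancreatic islets and from other secretory epithelia, was found in the list of other organs and was called higher, with 201, 186 and 179 CPM at day 0 and 437, 388 and 374 CPM at day 2 (1.08, SE 0.14). The other pancreatic markers of that list had no read, as given above.

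The 2 arms of a hairpin are cut from the same precursor, and their ratio within a library does not depend on the scaling, apart from the pseudocount. Of 150 precursors with both arms tested, both arms were called higher in 22 and both lower in 17, and neither in 54. The ratio of 5p to 3p itself was called for 23 (15.3%), 7 towards 5p and 16 towards 3p. Without day 0 replicate 3 it was called for 11 and without day 2 replicate 3 for 12, and 9 of the 23 held in every alternative run. The scarcer arm of each precursor was taken from the other days of the series, and 16 of the 23 called ratios moved towards it, as did 60 of the 127 not called.

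miR-27a gave the largest change in ratio, although its 5p arm lay just under the mean of 10 CPM that the rule for named arms asks, and it is named after its values were seen. miR-27a-5p had 4.69, 6.31 and 3.76 CPM at day 0 and 12.3, 15.0 and 17.6 CPM at day 2. Its partner miR-27a-3p, known to hold back the formation of fat cells, had 1280, 1414 and 1624 CPM and then 1347, 1431 and 1423 CPM. The log2 ratio of 5p to 3p changed by 1.47 (SE 0.19, adjusted p = 2.94e-05), and the 3p arm alone was not called (-0.03).

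In miR-125a, whose 5p arm is a homologue of worm lin-4, the 5p arm was at 4036 ± 1441 and 3454 ± 326 CPM, while miR-125a-3p had 9.12, 9.56 and 8.39 CPM at day 0 and 19.8, 18.2 and 21.9 CPM at day 2. Its log2 ratio fell by 1.23 (SE 0.26, adjusted p = 0.00214). Its neighbour in the Spaca6 cluster, miR-99b, did likewise (-1.06, adjusted p = 0.00571), a call lost without day 0 replicate 3 (adjusted p = 0.0541). The 5p arms of both were highest in day 0 replicate 3.

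In miR-28 the arms moved in opposite directions, miR-28-5p from 255, 266 and 328 CPM to 232, 226 and 238 CPM and miR-28-3p from 110, 95.8 and 91.5 CPM to 158, 151 and 151 CPM. The ratio of 5p to 3p was 2.33, 2.77 and 3.59 at day 0 and 1.46, 1.49 and 1.57 at day 2 (-0.91, SE 0.17, adjusted p = 0.00136), while the fall of the 5p arm alone (-0.28, adjusted p = 0.0415) was lost in 8 alternatives, library totals among them (adjusted p = 0.658). miR-26a, chosen after its values were seen, had a ratio change of -1.17 (SE 0.22). Its scarce 3p arm was at 4.04 ± 0.790 and 6.59 ± 0.916 CPM, and the call of that arm alone (0.59, adjusted p = 0.0332) was lost in 6 of 17 alternatives, among them DESeq2 (adjusted p = 0.0525) and 4 that left out a library: day 0 replicate 1 or 2, or day 2 replicate 1 or 2 (adjusted p up to 0.111).

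Both arms of miR-21 rose, but unequally. The reads of miR-21-5p for each read of miR-21-3p were 83.3, 80.5 and 103 at day 0 and 49.4, 55.8 and 50.2 at day 2 (-0.77, SE 0.15, adjusted p = 0.00151). In let-7i the 5p arm gained (0.75, SE 0.16), in miR-874 the 3p arm lost (ratio 0.94, SE 0.17), and in miR-93 the 3p arm gained (-0.75, SE 0.16). These ratios held in every alternative run, as did those of miR-27a, miR-26a, miR-28, miR-125a and miR-130a. The 5p arm of miR-130a had means of 0.870 CPM at day 0 and 2.14 CPM at day 2, near the pseudocount of 1. The call of that arm alone (0.79, adjusted p = 0.0175) was lost in 4 of 17 alternatives, among them DESeq2 (adjusted p = 0.0557).

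**Figure D5:**
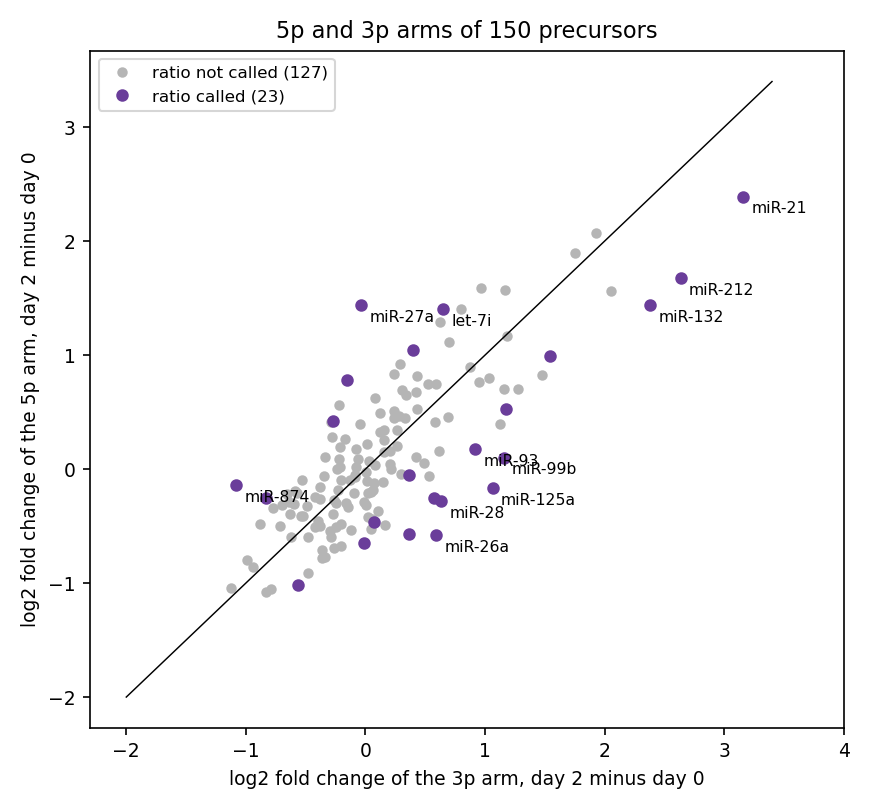
Difference between day 2 and day 0 (log2 of CPM + 1) of the 5p arm against that of the 3p arm for 150 precursors, with the line of equal change. The 23 precursors with a called ratio are purple, 16 of them below the line (towards 3p) and 7 above it (towards 5p).

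Day 2 was lastly set against the days on either side, to see what set it apart within the acute phase; this contrast uses no day 0 library. Against the mean of days 1 and 3, limma called 0 of 431 miRNAs (0%), with 36 at an unadjusted p under 0.05 and a lowest adjusted p of 0.124. edgeR's quasi-likelihood test on the recovered reads called 3 (0.696%), with 38 unadjusted, and DESeq2 called 2, all of them higher at day 2. The 3 of edgeR were miR-144-3p, miR-486-3p and miR-5097, of which the first 2 are erythroid. miR-486-3p had 10.3, 10.7 and 7.39 CPM at day 2, between 5.46 and 6.48 CPM at day 1, and between 1.20 and 2.93 CPM at day 3. Both calls of DESeq2, miR-486-3p and miR-5097, were among them. miR-144-3p had 146, 121 and 68.4 CPM at day 2, which overlaps day 1 (50.5, 90.9 and 75.4 CPM). At day 3 it had 24.3, 12.3 and 15.2 CPM.

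Every day 2 library lay above every library of days 1 and 3 for 10 of the 431 miRNAs and below for 5. Among the first was miR-21-3p, with 1203, 1006 and 937 CPM at day 1, 1660, 1474 and 1348 CPM at day 2 and 1291, 1095 and 966 CPM at day 3 (0.47, adjusted p = 0.347). miR-125a-3p, at 19.8, 18.2 and 21.9 CPM on day 2, ran from 10.8 to 16.2 CPM on day 1 and from 13.6 to 15.6 CPM on day 3 (0.47, adjusted p = 0.266). miR-21-5p itself was between 55690 and 62756 CPM at day 1 and between 66720 and 80956 CPM at day 3, which overlaps day 2 (0.21, adjusted p = 0.803). With limma fitted to the compared days alone 8 miRNAs were called higher at day 2. Most were erythroid: miR-451, miR-144-3p, miR-144-5p, miR-486-5p and miR-486-3p, beside miR-3107-5p, whose values are nearly those of miR-486-5p. The others were miR-21-3p and miR-5097. With a pseudocount of 4 there were 2, and without day 1 replicate 1 there was 1. miR-451 had 606, 1793 and 1085 CPM at day 1, which overlaps its 1712, 1442 and 835 CPM at day 2. At day 3 it had 298, 174 and 227 CPM.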

How the data were processed

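The authors deposited 1 table of CPM (reads assigned to miRNAs, scaled so that each library has the same total) for 1125 mature miRNAs; CASAVA 1.8 and the genome build mm9 were used, per the submitters' processing notes, and the aligner is not given in the sources used here, nor are the counting rule and miRBase release. All values were whole multiples of 1 read (100% within 0.05 of a read, largest distance 0.035), so whole reads were recovered. edgeR's filterByExpr on these reads, with a minimum count of 10, left 431 miRNAs; 250 had no read in any of the 21 libraries. CPM were scaled by TMM (edgeR 4.0.16) and log2(CPM + 1) was fitted with limma 3.58.1 (limma-trend), 1 mean per day over 21 libraries, with Benjamini-Hochberg adjustment. Arm ratios were fitted as log2((5p + 1)/(3p + 1)). Scripts were tested on simulated data. Count tests (edgeR quasi-likelihood, DESeq2 1.42.0), other scalings, pseudocounts of 0.5 and 4, no filter, and leaving out each library were alternatives. Counting error alone allows up to 3 reads behind a 0.

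The miRNAs and lists were chosen with earlier results of these data known. Named were the 12 largest rises and falls (called, mean of 10 CPM or more over the 6 libraries, no overlap), list members, the 10 most abundant miRNAs, the 10 shares that moved most each way, the 6 largest called arm ratios each way (both arms at 10 CPM or more), seed groups of 3 or more and, for genes within 10000 bases, clusters of 4 or more, the last added later. Of the 431, 337 (78.2%) had a RefSeq sequence, 19 under a later name (miR-21-5p is miR-21a-5p). Seed groups hold these alone and may miss members. Host genes are from GENCODE M21. Coordinates are GRCm38, not the build of the deposited table.

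No pairing of the libraries by replicate number was detected: same-numbered libraries of the 2 days deviated from their group means with correlations between -0.08 and 0.10.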

Additional observations from a re-analysis of the deposited data

How the results depend on the processing

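The count of calls between day 2 and day 0 ran from 171 to 193 over the other tests, scalings, pseudocounts and filters, and from 151 to 179 when each library was left out (86 to 98 higher, 65 to 84 lower). Library totals in place of TMM gave 143 higher and 47 lower; that scaling moves the median of all miRNAs. Of 120 called miRNAs among 207 followed individually, 85 were called in every alternative, 35 lost the call in 1 or more, and none changed sign. Called arm ratios numbered 37 with a pseudocount of 4, 38 of 331 precursors with no filter, and 11 to 26 when a library was left out. Against days 1 and 3, edgeR called 3, DESeq2 2, a pseudocount of 4 gave 2, a fit of the compared days alone gave 8, and leaving out a library gave 0 to 1; the cause was not tested. With the replicate number as a block, 189 miRNAs (104 higher, 85 lower) and 22 arm ratios were called and 0 against days 1 and 3. No pairing by these numbers was detected, with 2 of 6 libraries correlating best with their own number. So few libraries cannot show that the numbers carry no shared batch.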
